A study of Mus musculus with 9 samples.

Results

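The RIG-I-like receptor pathway was followed through the mRNAs of 6 genes, which were found by symbol among the 36410 rows of the deposited count table. They are the receptor genes Ddx58 (RIG-I), Ifih1 (MDA5) and Dhx58 (LGP2), the adaptor gene Mavs, and the ubiquitin ligase genes Trim25 and Rnf135 (Riplet). All 6 were listed, and all 6 passed the filter on low counts that left 13508 genes for testing. RNA-seq had been made from 3 immortalized mouse striatal cell lines of the C57/BL6 strain, with 3 replicate libraries each. Control cells (STHdhQ7/Q7) carry a knock-in huntingtin exon 1 with 7 glutamine codons on both alleles, HD-het cells (STHdhQ7/Q111) carry 7 on the one allele and 111 on the other, and HD-homo cells (STHdhQ111/Q111) carry 111 on both. The labels give no treatment. Each genotype was represented by 1 line made from mouse embryos, so that an effect of the glutamine repeat and any other difference between the lines cannot be told apart. The labels do not say whether the 3 libraries of a line came from separate cultures, and the p values then measure only the spread between these libraries.

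RIG-I and MDA5 are cytosolic helicases that bind double-stranded RNA. RIG-I binds RNA ends that carry a triphosphate, and MDA5 assembles along long duplexes. Once bound, both expose caspase recruitment domains that engage MAVS, an adaptor anchored in the outer mitochondrial membrane, and MAVS then recruits kinases that activate IRF3, IRF7 and NF-κB. LGP2 lacks the recruitment domains and modulates the other receptors. TRIM25 and Riplet are ubiquitin ligases that promote RIG-I signalling. In many cell types interferon raises the mRNAs of the 3 receptors and of TRIM25, and the pathway is best known for its part in antiviral defence.

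The promoters were read from RefSeq (GRCm38.p6) over the 300 bases from 250 before to 50 after each start, and a short element found in 3 of them is shown as a description. The table held 5 of the 6 members, all but Dhx58. The element searched was the core of the interferon response element in the forms GAAA or GGAA, then any 2 bases, then GAAA, on both strands, and it was chosen after the promoters and the differences between the lines had been seen, so that its count among the members is no test. One of these forms was present in 3 of the 5 promoters, those of Ddx58, Ifih1 and Trim25, and in 1944 of 32851 promoters of all genes (5.92%). Among the promoters of tested genes the share was 5.04%. The match lay within 50 bases of the start in each case, from base 3 to base 12 of the Ddx58 transcript, from base 33 to base 42 of the Ifih1 transcript and from base -4 to base 6 around the Trim25 start. In the sequences around the matches, written along the gene's own strand, capitals mark the element, which reads on the opposite strand in Ddx58 and Trim25.
Ddx58, chr4:40239804-40239833, minus strand: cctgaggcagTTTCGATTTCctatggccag
Ifih1, chr2:62646206-62646233, minus strand: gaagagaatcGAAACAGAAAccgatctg
Trim25, chr11:88999389-88999418, plus strand: tcctgttcagTTTCGATTCCttcctcgctg
The 60 bases before the starts of Mavs and Rnf135 are shown for comparison. Neither form was found in the 300-base windows of these genes.
Mavs, chr2:131234003-131234062, plus strand: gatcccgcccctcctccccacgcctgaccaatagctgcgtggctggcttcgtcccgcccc
Rnf135, chr11:80183809-80183868, plus strand: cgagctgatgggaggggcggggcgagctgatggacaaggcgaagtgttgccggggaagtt
A match is a stretch of letters and was not tested for binding of any factor.

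Libraries held between 29507665 and 41197931 counts, and values are given as counts per megaread (CPM) after normalization by edgeR's TMM method (factors between 0.984 and 1.03). A count of 3, taken as the floor, corresponded to between 0.0710 and 0.101 CPM. Floors and counting intervals cover counting error only. Replicates differed by more than counting noise in every pair, with a variance 2.19 to 39.6 times that of counting alone. Such a spread does not show that the libraries came from separate cultures, and each line was taken as 3 libraries. The variance was lowest between control replicates 1 and 2 and highest between HD-homo replicates 2 and 3. The striatal label was compared with marker genes. Of 10 markers of striatal projection neurons, 3 passed the filter, the dopamine receptor gene Drd1 had no read in any library, and the summed level of the list was 1.74 to 4.21 CPM over the 9 libraries. Of 6 general neuronal markers, 2 passed, the cytoskeletal genes Map2 and Tubb3, which made up nearly all of the list's sums of 88.8 to 114 CPM. The other 4, Rbfox3, Snap25, Syt1 and Nefl, had at most 3 reads in any library. Neural progenitor markers summed to 660 to 702 CPM in control cells, 949 to 989 CPM in HD-het cells and 27.2 to 40.2 CPM in HD-homo cells. Markers of fibroblasts and other mesenchymal cells, all 6 of them tested, summed to 10313 to 11109 CPM, 17658 to 19228 CPM and 10359 to 11334 CPM in the same order. Single genes of this list moved far apart beneath these sums. Acta2 held 2271 ± 186 CPM in control, 5290 ± 354 CPM in HD-het and 91.8 ± 30.5 CPM in HD-homo libraries. Col1a2 held 73.4 ± 6.19, 3.15 ± 0.424 and 1494 ± 75.0 CPM, so that, like Trim25, it was lowest in HD-het cells and highest in HD-homo cells.

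Immune cells express the receptors strongly. Of 10 of their markers, 4 passed the filter, and Aif1 and Cd3e had no read in any library. The leukocyte gene Ptprc had 1 to 19 reads per library. The list summed to 14.3 to 18.0 CPM in control cells, 45.9 to 57.8 CPM in HD-het cells and 15.7 to 17.0 CPM in HD-homo cells, and most of each sum was Tmem119 (13.1 ± 1.91, 45.9 ± 4.89 and 11.5 ± 0.779 CPM), which sets the order of the sums. The macrophage receptor gene Csf1r moved otherwise and was highest in HD-homo cells, at 0.544 ± 0.128, 0.666 ± 0.0913 and 2.04 ± 0.368 CPM. Cd68 held 1.82 ± 0.161, 3.47 ± 1.16 and 2.45 ± 0.0345 CPM. The remaining lists moved as follows. Astrocyte markers, 2 of 5 tested, summed to 2.71 to 3.01 CPM, 1.10 to 1.59 CPM and 12.8 to 18.6 CPM, the last mostly Slc1a3. Oligodendrocyte markers, 2 of 4 tested, summed to 0.541 to 0.902 CPM, 1.27 to 1.52 CPM and 1.47 to 2.45 CPM, and of these Mbp held 0.115 ± 0.0120, 0.119 ± 0.0327 and 1.23 ± 0.488 CPM. Endothelial markers, 2 of 4 tested, lay between 0.743 and 1.18 CPM. Markers of several cell types thus differed between HD-homo cells and the other lines, higher for the astrocyte list, Col1a2, Mbp and Csf1r and lower for the progenitor list and Acta2, and their part in the results was not tested. In these bulk libraries, more cells with an mRNA and more mRNA per cell cannot be told apart.

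In HD-homo cells all 6 mRNAs were higher than in control cells, against a background in which 29.6% of the tested genes were higher and 28.9% lower. Of the 6, 4 changed at least 2-fold (Ddx58, Ifih1, Dhx58 and Trim25), and 19.1% of the tested genes did so in either direction. The median log2 fold change was 2.11 over the 6 members and 0.01 over all tested genes. The libraries of the 2 lines did not overlap for any of the 6, which was also the case for 65.3% of the tested genes. The tests were two-sided and used edgeR's quasi-likelihood model with Benjamini-Hochberg adjustment over all tested genes and a threshold of 0.05. For a member taken alone, an exact permutation of 3 libraries against 3 cannot give a p below 0.1.

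HD-het cells did not follow the same pattern. Against control cells 3 members were higher (Ddx58, Ifih1 and Mavs), 2 were lower (Trim25 and Dhx58) and Rnf135 did not pass the threshold, where 33.8% of the tested genes were higher and 31.4% lower. At least 2-fold changes were seen in 2 members, Ifih1 and Trim25, and in 18.4% of the tested genes. The median log2 fold change was 0.24 over the members and 0.03 over all tested genes. Libraries did not overlap for 5 members and for 74.0% of the tested genes.

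Between the HD lines, 4 members were higher in HD-homo cells, each by at least 2-fold, and Mavs and Rnf135 did not pass the threshold. Of the tested genes, 36.0% were higher, 35.6% lower and 24.3% changed at least 2-fold. The median log2 fold change was 2.08 over the members and 0.00 over all tested genes. Libraries did not overlap for 5 members and for 72.8% of the tested genes. The 3 comparisons share their libraries in pairs, so that their counts are not independent of each other.

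**Figure D1:**
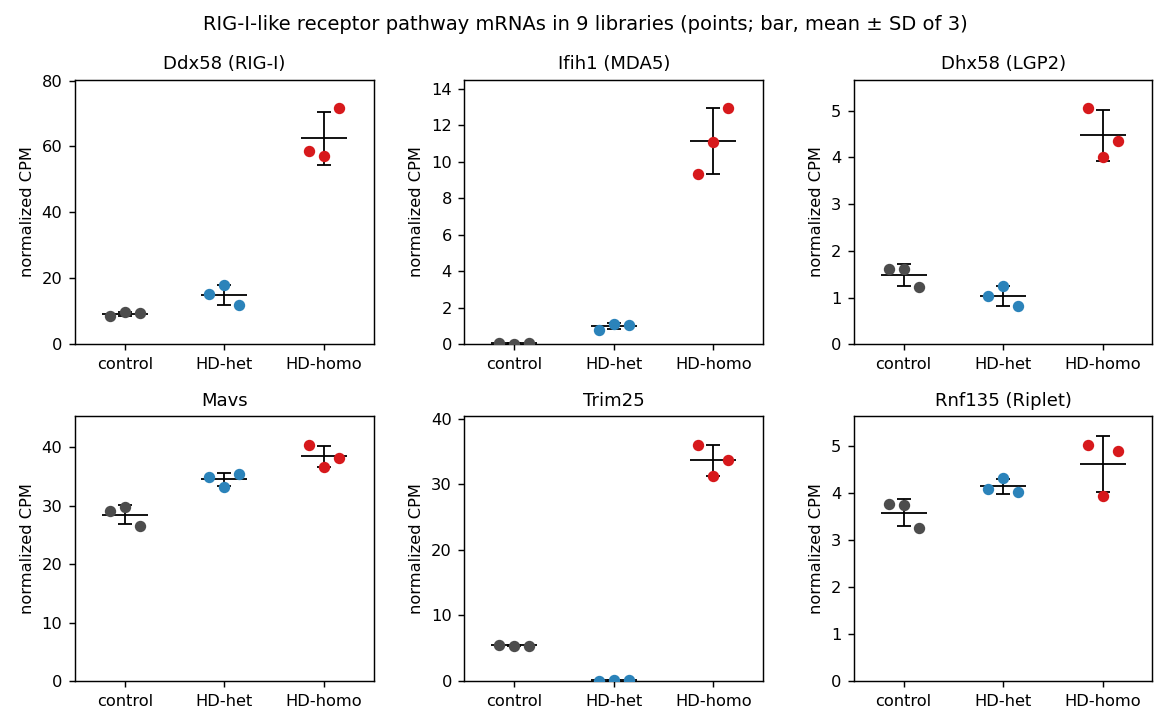
Normalized CPM (vertical axes, starting at 0, with a scale of its own for each gene) of the 6 pathway mRNAs, by line. Points are the 3 libraries of a line, and the bar with whiskers is their mean ± SD. Trim25 lay at 5.41 CPM in control cells, at 0.0902 CPM in HD-het cells and at 33.7 CPM in HD-homo cells, while Mavs and Rnf135 stayed within a narrow range.

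Ddx58 encodes RIG-I. Its gene is on chromosome 4, minus strand (GRCm38, chr4:40203773-40239828), and its principal transcript has 18 exons and 3874 nucleotides. Control libraries held 8.62, 9.72 and 9.37 CPM, HD-het libraries 15.3, 17.9 and 11.9 CPM, and HD-homo libraries 58.7, 57.0 and 71.6 CPM. Every HD-het library thus lay above every control library, and every HD-homo library lay far above both. The mean was 9.24 ± 0.565 CPM in control cells, 15.0 ± 3.01 CPM in HD-het cells and 62.5 ± 7.98 CPM in HD-homo cells (SD, n = 3 each). Ddx58 stood 6.76-fold above control in HD-homo cells (log2 fold change 2.76, SE 0.144, edgeR adjusted p = 2.79e-08). HD-het cells held 1.62-fold the control level (log2 fold change 0.70, SE 0.145, edgeR adjusted p = 0.00132). The step from HD-het to HD-homo cells was 4.17-fold (edgeR adjusted p = 1.43e-07).

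Ifih1 encodes MDA5 and showed the widest range among the receptors. It lies on the minus strand of chromosome 2 (chr2:62595798-62646255) and has 16 exons and 5470 nucleotides in its principal transcript. Control libraries held 2, 0 and 2 reads, which is below the floor of 3 in each. HD-het libraries held 28, 37 and 35 reads, or 0.790, 1.13 and 1.05 CPM. HD-homo libraries held 304, 469 and 434 reads, or 9.32, 11.1 and 12.9 CPM. The gene was thus close to absent from the counts of control cells, low in HD-het cells and well counted in HD-homo cells, with no overlap between any of the lines.

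From the summed reads, Ifih1 stood 265-fold above control in HD-homo cells, with a 95% counting interval of 103 to 976. HD-het cells stood 23.4-fold above control (counting interval 8.88 to 87.7), and HD-homo cells stood 11.3-fold above HD-het cells (counting interval 9.23 to 14.0). Since the control value rests on 4 reads, the size of the first ratios is known only within these wide limits. The fitted log2 fold changes were 7.93 for HD-homo against control cells (SE 0.343, edgeR adjusted p = 6.03e-09) and 4.44 for HD-het against control cells (SE 0.482, edgeR adjusted p = 1.15e-05). Without control replicate 2, which held no read, they became 7.34 and 3.85. Between the HD lines the log2 fold change was 3.49 (SE 0.208, edgeR adjusted p = 5.82e-08).

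Dhx58 encodes LGP2, and its level was low in every line. It lies on the minus strand of chromosome 11 (chr11:100694884-100704271), with 13 exons and 2412 nucleotides. Control libraries held 1.62, 1.61 and 1.22 CPM, HD-het libraries 1.04, 1.25 and 0.809 CPM, and HD-homo libraries 5.06, 4.00 and 4.35 CPM. The control and HD-het libraries overlapped, since HD-het replicate 2 lay above control replicate 3, while the HD-homo libraries were above all others. The mean in HD-homo cells, 4.47 ± 0.538 CPM, was 3.02-fold that in control cells, 1.48 ± 0.228 CPM (log2 fold change 1.59, SE 0.183, edgeR adjusted p = 2.11e-05). Against HD-het cells, with 1.03 ± 0.221 CPM, it was 4.32-fold (log2 fold change 2.11, SE 0.191, edgeR adjusted p = 1.78e-06).

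The difference of Dhx58 between HD-het and control cells was small and uncertain. The log2 fold change was -0.52 (SE 0.211, edgeR adjusted p = 0.0476), or 1.43-fold lower in HD-het cells. The adjusted p became 0.136 without control replicate 1, 0.134 without control replicate 2, 0.0972 without HD-het replicate 1, 0.155 without HD-het replicate 3 and 0.0512 without HD-homo replicate 3. It was 0.072 by DESeq2's Wald test. Exons of Dhx58 share 141 bases (4.31% of its exonic bases) with the antisense gene Dhx58os, and since the sources used here do not say whether strand was used in counting, reads of the shared bases may belong to either.

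Levels can be compared between genes only per length. Per kilobase of principal transcript, the 3 receptor mRNAs summed to 3.01 ± 0.148 CPM per kb in control cells, 4.48 ± 0.874 CPM per kb in HD-het cells and 20.0 ± 2.31 CPM per kb in HD-homo cells. Ddx58 made up most of this sum in every line, with 79.3 ± 2.93% for control, 86.3 ± 0.957% for HD-het and 80.5 ± 0.943% for HD-homo cells. The Ifih1 share was 0.271 ± 0.235% in control, 4.13 ± 1.10% in HD-het and 10.2 ± 1.05% in HD-homo libraries. Its libraries did not overlap between lines, with at most 0.421% in control cells, 3.20 to 5.34% in HD-het cells and 8.98 to 11.0% in HD-homo cells. The Dhx58 share was 20.4 ± 2.98% in control cells and lower in both HD lines, at 9.55 ± 0.187% (HD-het) and 9.34 ± 1.57% (HD-homo). The composition of the receptor mRNAs thus differed between the lines as well as their sum.

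**Figure D2:**
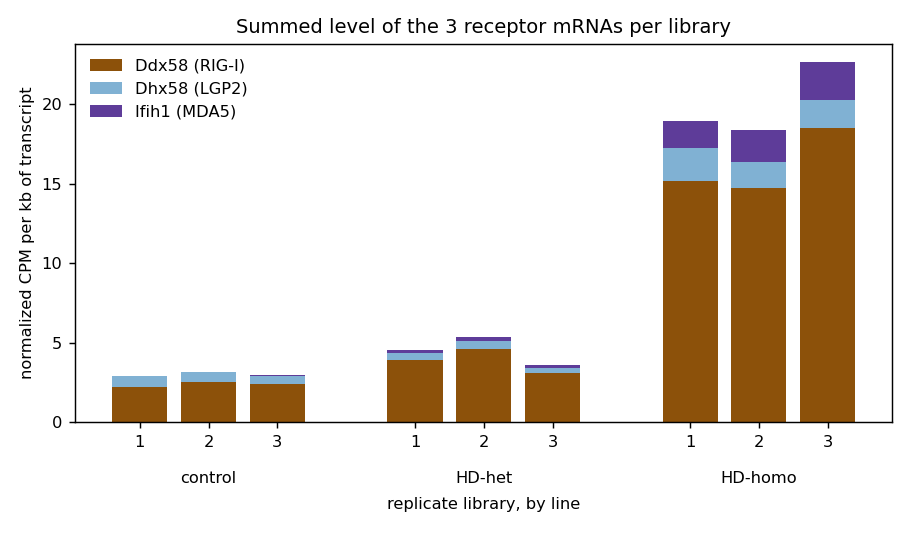
Stacked bars of the normalized CPM per kb of principal transcript (vertical axis, from 0) of Ddx58, Dhx58 and Ifih1 in each of the 9 libraries, grouped by line along the horizontal axis. The sum was 2.91 to 3.18 in control cells, 3.59 to 5.34 in HD-het cells and 18.4 to 22.7 in HD-homo cells, and Ifih1 is visible chiefly in HD-homo cells.

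Mavs, the adaptor that all signalling receptors of the family use, varied little. The gene lies on the plus strand of chromosome 2 (chr2:131234063-131248025), with 7 exons and 3057 nucleotides. Control libraries held 29.1, 29.8 and 26.6 CPM, HD-het libraries 34.9, 33.3 and 35.4 CPM, and HD-homo libraries 40.4, 36.7 and 38.1 CPM. The lines did not overlap, and the order was control, HD-het, HD-homo. Mavs stood 1.35-fold above control in HD-homo cells (log2 fold change 0.43, SE 0.0687, edgeR adjusted p = 0.000258). In HD-het cells the ratio to control was 1.21 (log2 fold change 0.28, SE 0.0689, edgeR adjusted p = 0.00439). Between the HD lines the log2 fold change was 0.15, with an unadjusted 95% interval of 0.00488 to 0.305 and an edgeR adjusted p of 0.0605. That value became 0.0366 without HD-homo replicate 2 and 0.0258 with scaling by library totals alone.

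Per kilobase, Mavs was the highest of the 6 mRNAs in control cells, at 9.32 ± 0.554 CPM per kb, and in HD-het cells, at 11.3 ± 0.355 CPM per kb. In both lines Ddx58 came next, with 2.38 ± 0.146 and 3.87 ± 0.777 CPM per kb. In HD-homo cells Ddx58 stood above Mavs, at 16.1 ± 2.06 against 12.6 ± 0.616 CPM per kb, with no overlap between the libraries. The adaptor thus exceeded the summed receptors in control and HD-het cells and lay below them in HD-homo cells on this scale of mRNA level.

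Trim25 encodes a ubiquitin ligase that acts on RIG-I, and it was the member in which the HD lines moved furthest apart. The gene lies on the plus strand of chromosome 11 (chr11:88999376-89020293), with 9 exons and 5590 nucleotides. Control libraries held 178, 179 and 159 reads, HD-het libraries 1, 5 and 3 reads, and HD-homo libraries 1175, 1320 and 1129 reads. In CPM these were 5.54, 5.32 and 5.38 in control cells, 0.0282, 0.152 and 0.0899 in HD-het cells, and 36.0, 31.3 and 33.7 in HD-homo cells. Each HD-het library was thus at or near the floor, the control libraries were nearly alike, and the HD-homo libraries were the highest.

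From the summed reads, Trim25 was 61.1-fold higher in control than in HD-het cells, with a counting interval of 31.9 to 134 (log2 fold change -5.88, SE 0.233, edgeR adjusted p = 7.45e-09). HD-homo cells held 6.22-fold the control level (log2 fold change 2.63, SE 0.112, edgeR adjusted p = 5.23e-09). Between the HD lines the ratio of summed reads was 378, with a counting interval of 199 to 827 (log2 fold change 8.51, SE 0.196, edgeR adjusted p = 3.13e-11). The decrease in HD-het cells was the 32nd largest among the 13508 tested genes, and the difference between the HD lines was the 45th largest increase. Of the 5541 words of 50 bases in the principal transcript, 11 also occur in annotated transcripts of other genes (0.199%). How many of its reads could match another gene was not tested.

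The tested genes next to each member were looked up after the counts had been seen. On either side of Trim25, the nearest tested genes were still counted in HD-het cells. Coil, at 28.9 kb between gene midpoints, held 16.6 to 17.4 CPM in control cells, 11.0 to 12.5 CPM in HD-het cells and 13.3 to 15.5 CPM in HD-homo cells. Dgke, at 41.2 kb on the other side, held 32.1 to 35.1 CPM, 31.8 to 37.8 CPM and 34.5 to 42.8 CPM in the same order. In HD-het against control cells, Coil fell by 0.55 on the log2 scale (edgeR adjusted p = 0.000175), and Dgke had a log2 fold change of 0.04 (edgeR adjusted p = 0.74). Of the 5 tested genes on each side, 4 were lower and 2 higher in HD-het cells against control (31.4% and 33.8% of all tested genes), and the 10 had a median log2 fold change of 0.02. None of these neighbours thus fell from control to HD-het cells to the extent that Trim25 did, and the cause of its fall was not tested. Tmem100 had no read in control or HD-het cells, so that a fall could not be seen there.

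The region of Ifih1 was read in HD-homo against control cells first. Of the 5 tested genes on each side, 9 were higher and 1 lower in HD-homo cells against control, where 29.6% of all tested genes were higher and 28.9% lower, with a median log2 fold change of 1.10. Scn3a, a sodium channel gene at 2891 kb, held at most 0.03 CPM in control and 56.8 to 91.8 CPM in HD-homo libraries, and Pla2r1, on the other side, held at most 0.03 and 6.90 to 9.51 CPM. In HD-het libraries they held at most 0.085 and 0.061 CPM, so that both passed the filter through HD-homo libraries only. Gca, the nearest at 58.2 kb, held 0.06 to 0.22 CPM in control, 3.05 to 3.36 CPM in HD-het and 0.36 to 0.71 CPM in HD-homo libraries. In HD-het against control cells 3 of the 10 were higher and 2 lower. The 10 neighbours of Trim25 were 6 higher and 4 lower in HD-homo against control cells, with a median log2 fold change of 0.21. Tmem100, among the 6, passed the filter through HD-homo libraries only. For the remaining members, the 10 neighbours in HD-homo against control cells were 3 higher and 2 lower (Ddx58), 3 higher and 1 lower (Dhx58), 3 higher and 4 lower (Mavs) and 5 higher and 1 lower (Rnf135). Around Ifih1, Scn3a and Pla2r1 could be listed only as higher in HD-homo cells. The count of 9 and the median of 1.10 include them and are therefore no support for a shared rise. Gca and Fign were higher in HD-het than in HD-homo libraries, unlike Ifih1. A part of the region in the result was not tested.

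**Figure D3:**
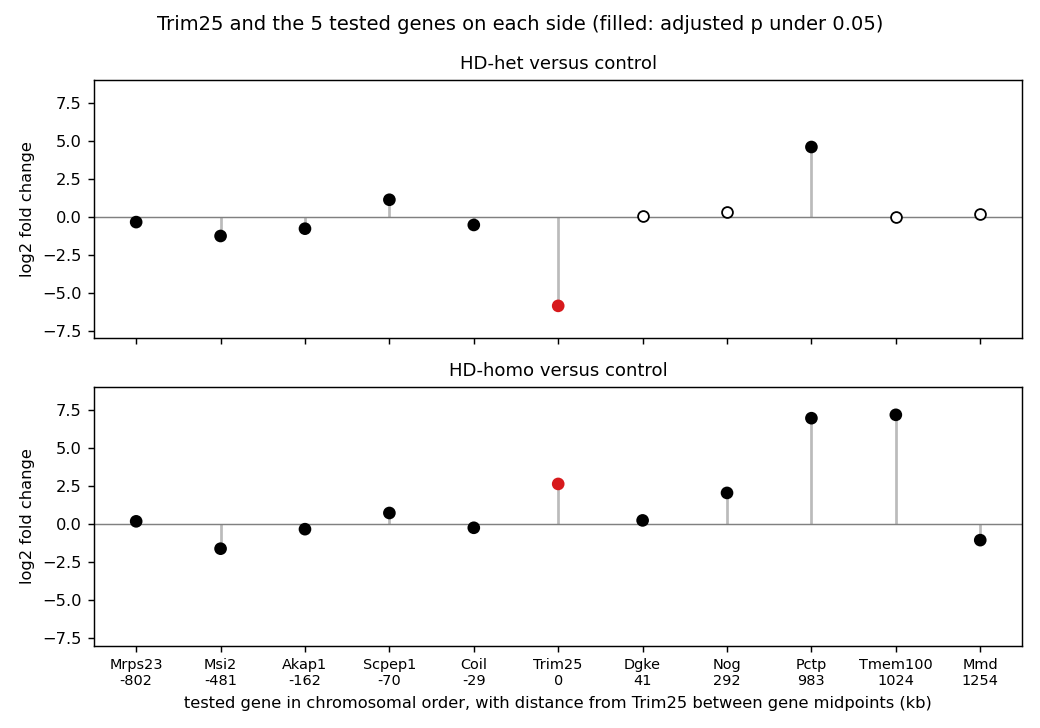
log2 fold change (vertical axis) of Trim25 (red) and of the 5 tested genes on each side in chromosomal order, with the distance between gene midpoints in kb under each name, for HD-het (top) and HD-homo cells (bottom) against control cells. Filled points passed an adjusted p of 0.05. Trim25 lay at -5.88 in HD-het cells and at 2.63 in HD-homo cells, and the lowest neighbour in HD-het cells, Msi2, lay at -1.28. Tmem100 had no read in control or HD-het cells, so that its fitted values depend on the prior count.

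Rnf135 encodes Riplet, the other ligase that acts on RIG-I, and it differed least between the lines. It lies on the plus strand of chromosome 11 (chr11:80183851-80199757), with 5 exons and 1984 nucleotides. Control libraries held 3.76, 3.75 and 3.25 CPM, HD-het libraries 4.09, 4.33 and 4.01 CPM, and HD-homo libraries 5.03, 3.93 and 4.89 CPM. The HD libraries lay above the control libraries and overlapped with each other, since HD-homo replicate 2 was below all HD-het libraries. Against control cells Rnf135 was 1.29-fold higher in HD-homo cells (log2 fold change 0.36, SE 0.133, edgeR adjusted p = 0.037). For HD-het against control cells it was 0.21 on the log2 scale, with a 95% interval of -0.09 to 0.50 and an edgeR adjusted p of 0.196. Between the HD lines it was 0.15, with an interval of -0.14 to 0.44 and an edgeR adjusted p of 0.316.

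The call for Rnf135 in HD-homo cells was fragile. Its adjusted p was 0.0653, 0.0658 and 0.123 without control replicates 1, 2 and 3, 0.0541 and 0.0504 without HD-het replicates 1 and 2, and 0.114 and 0.0897 without HD-homo replicates 1 and 3. It was 0.0635 by DESeq2's Wald test and 0.0622 with only the 2 lines compared in the fit.

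**Figure D4:**
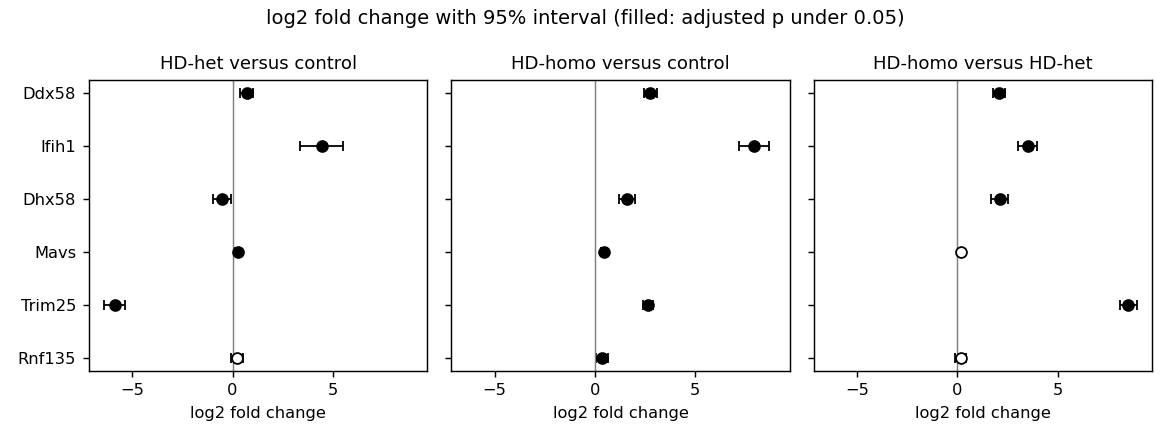
log2 fold change (horizontal axis) of the 6 members for HD-het against control, HD-homo against control and HD-homo against HD-het cells, with its 95% interval. Filled points passed an adjusted p of 0.05. Trim25 is on opposite sides of 0 in the 2 HD lines, at -5.88 and 2.63, and Ifih1 is the highest in both, at 4.44 and 7.93.

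Across the 9 libraries the members did not share 1 profile. Pearson's r of log2 CPM between members ran from 0.16 for Mavs and Trim25 to 0.94 for Ddx58 and Ifih1, and was 0.87 for Dhx58 and Trim25. These values describe 9 libraries in 3 lines, and the means of the lines enter each of them. The genes most like each receptor were taken in the same way from 12016 genes with a mean of at least 1 CPM. For Ddx58 they were Tgfbi, Ptges, Il1rn, Srgap3 and Rnf11, with r from 0.993 to 0.995. For Ifih1 they were Samd9l, Syce2, Dnah6, Slc25a20 and Tanc2, with r from 0.992 to 0.995. Samd9l rose from 0.390 CPM in control to 3.34 CPM in HD-het and 18.6 CPM in HD-homo cells. For Dhx58 they were Acan, Pkdcc, Tcp11l1, Sh2d4a and Matn2, with r from 0.986 to 0.996. Each of these was lowest in HD-het cells, as Dhx58 was. This likeness, and that of Samd9l to Ifih1, follows from how the genes were picked.

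The other genes of the pathway were taken from 6 lists of 84 genes in all, of which 73 were tested. In HD-homo against control cells 23 were higher (31.5%, against 29.6% of all tested genes) and 18 lower (24.7%, against 28.9%), and the median log2 fold change was 0.04. In HD-het against control cells 23 were higher (31.5%, against 33.8% of all tested genes) and 31 lower (42.5%, against 31.4%), with a median of -0.07. In HD-homo against HD-het cells 38 were higher (52.1%, against 36.0%) and 17 lower (23.3%, against 35.6%), with a median of 0.22. At least 2-fold changes were seen in 12, 6 and 15 of the 73, in the same order, against 19.1%, 18.4% and 24.3% of all tested genes. These shares describe the lists, and no test of a list was made. Ddx60 and Trim14 passed the filter through HD-homo libraries only, which adds to the counts of genes higher there. Genes of the pathway around the receptors thus moved in both directions in each HD line.

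Among 13 partners in RNA recognition, 3 were higher and 4 lower in HD-homo cells against control, and 2 were higher and 8 lower in HD-het cells. Of all tested genes, 29.6% were higher and 28.9% lower in the former comparison, and 33.8% and 31.4% in the latter. Ddx60, a helicase described as a cofactor of the receptors, had no read in control cells, 0 to 4 reads per library in HD-het cells and 28 to 63 reads in HD-homo cells. Against the floor of 3 counts per library HD-homo cells were at least 13.7-fold higher than control (edgeR adjusted p = 7.55e-05). HD-homo cells exceeded HD-het cells by 4.62 on the log2 scale (edgeR adjusted p = 0.000103), and 6.15 without HD-het replicate 3. Only HD-homo libraries reached the filter's minimum count of 10, so that Ddx60 was tested only because it was high there. Its p values and its place among the 3 higher genes are therefore no support for a rise. Zc3hav1, the zinc-finger antiviral protein, stood 2.63-fold above control in HD-homo cells (121 ± 2.62 against 46.0 ± 0.994 CPM, edgeR adjusted p = 3.58e-09), and in HD-het cells it held 45.0 ± 2.33 CPM. Zcchc3, an RNA-binding cofactor of RIG-I, stood 1.96-fold below control in HD-homo cells (edgeR adjusted p = 1.23e-06) and 1.23-fold above it in HD-het cells (edgeR adjusted p = 0.00513). Ddx21, a nucleolar helicase, stood 2.32-fold below control in HD-het cells (edgeR adjusted p = 2.96e-07).

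Among ubiquitin enzymes and other factors that promote receptor or MAVS signalling, 12 of 13 were tested, and Trim31 had no read. Against control, 2 were higher and 2 lower in HD-homo cells (all tested genes 29.6% and 28.9%), and 2 higher and 6 lower in HD-het cells (33.8% and 31.4%). Trim65, a ligase for MDA5, stood 3.42-fold below control in HD-homo cells (1.31 ± 0.513 against 4.48 ± 0.531 CPM, edgeR adjusted p = 3.7e-05). The direction was thus the opposite of that of its substrate's mRNA, Ifih1. Trim14, a mitochondrial adaptor of MAVS, held 1 to 5 reads per library in control cells, 0 to 4 in HD-het cells and 30 to 44 in HD-homo cells. The difference of HD-homo from control cells was 3.18 on the log2 scale (edgeR adjusted p = 0.000225). Only HD-homo libraries reached the filter's minimum count of 10, so that Trim14 was tested only because it was high there. Its p value and its place among the 2 higher genes are therefore no support for a rise.

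The list of inhibitors, with 22 genes, had 8 higher and 6 lower in HD-homo cells (all tested genes 29.6% and 28.9%), and 10 higher and 4 lower in HD-het cells (33.8% and 31.4%), each against control cells. Rnf125, a ligase that marks RIG-I for degradation, was 4.00-fold higher in HD-homo cells (edgeR adjusted p = 1.28e-05) and 5.55-fold higher in HD-het cells (edgeR adjusted p = 2.01e-06) than in control cells, which held 0.630 ± 0.0874 CPM. Nlrc5, best known as a transactivator of MHC class I genes, was 8.78-fold higher in HD-homo cells (edgeR adjusted p = 1.57e-05) and 2.45-fold higher in HD-het cells (edgeR adjusted p = 0.0115). Nlrx1, a mitochondrial protein that binds MAVS, differed in direction between the lines. It was 2.21-fold lower in HD-homo cells (edgeR adjusted p = 0.00358) and 2.44-fold higher in HD-het cells (edgeR adjusted p = 0.000331) than in control cells. Smurf2, a ligase that promotes the loss of MAVS, was 2.32-fold higher in HD-homo cells (edgeR adjusted p = 5.96e-08) and had a log2 fold change of 0.08 in HD-het cells (edgeR adjusted p = 0.358).

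Below MAVS, the list of 19 adaptors and kinases had 7 higher and 4 lower in HD-homo cells (all tested genes 29.6% and 28.9%), and 6 higher and 9 lower in HD-het cells (33.8% and 31.4%), each against control cells. Ikbke, the inducible kinase IKKε, was 4.26-fold higher in HD-homo cells (edgeR adjusted p = 1.7e-06) and 2.38-fold higher in HD-het cells (edgeR adjusted p = 0.000121). Tank, a scaffold of the kinases, was 2.57-fold higher in HD-homo cells (edgeR adjusted p = 3.43e-07), and its value for HD-het cells was 0.19 on the log2 scale (edgeR adjusted p = 0.111). Tbkbp1, another scaffold, was 2.33-fold lower in HD-homo cells (edgeR adjusted p = 0.00089). In HD-het cells it stood 1.56-fold above control (edgeR adjusted p = 0.0174), with an adjusted p of 0.0732 without control replicate 3 and 0.0611 without HD-het replicate 1. Traf5, which MAVS recruits, was 1.58-fold lower in HD-homo cells (edgeR adjusted p = 0.000657) and 1.37-fold higher in HD-het cells (edgeR adjusted p = 0.00473). Tmem173 (STING), the adaptor of the DNA-sensing pathway, had log2 fold changes of 0.47 in HD-homo cells (edgeR adjusted p = 0.000282) and -0.88 in HD-het cells (edgeR adjusted p = 3.26e-06).

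All 7 transcription factors that MAVS signalling can activate were tested. Against control, 3 were higher and 2 lower in HD-homo cells (all tested genes 29.6% and 28.9%), and 3 higher and 4 lower in HD-het cells (33.8% and 31.4%). Irf7, the interferon-induced member of the group, held 1 to 6 reads per library in control cells, 26 to 40 in HD-het cells and 324 to 611 in HD-homo cells. Its log2 fold changes against control cells were 6.92 in HD-homo cells (edgeR adjusted p = 2.87e-07) and 3.20 in HD-het cells (edgeR adjusted p = 0.00115), and 7.61 and 3.89 without control replicate 1. Like Ifih1, Irf7 was thus near the floor in control cells, intermediate in HD-het cells and highest in HD-homo cells. Irf1 was 1.75-fold lower in HD-het cells (edgeR adjusted p = 0.000322) and 1.35-fold higher in HD-homo cells (edgeR adjusted p = 0.0142) than in control cells. The latter adjusted p was 0.0606 and 0.0551 without control replicates 1 and 2, and 0.0601 without HD-homo replicate 1. Jun was 1.72-fold lower in HD-homo cells (edgeR adjusted p = 2.86e-07).

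The interferon genes themselves were not detectable at this depth. Of 10 type I and type III interferon genes looked up, among them Ifnb1, 8 had no read in any of the 9 libraries, which allows a level of up to 0.0710 to 0.101 CPM per library. Ifnk had at most 2 reads in a library and 3 in all, and Ifne had at most 2 and 6 in all. None of the 10 passed the filter, and no comparison was made.

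**Figure D5:**
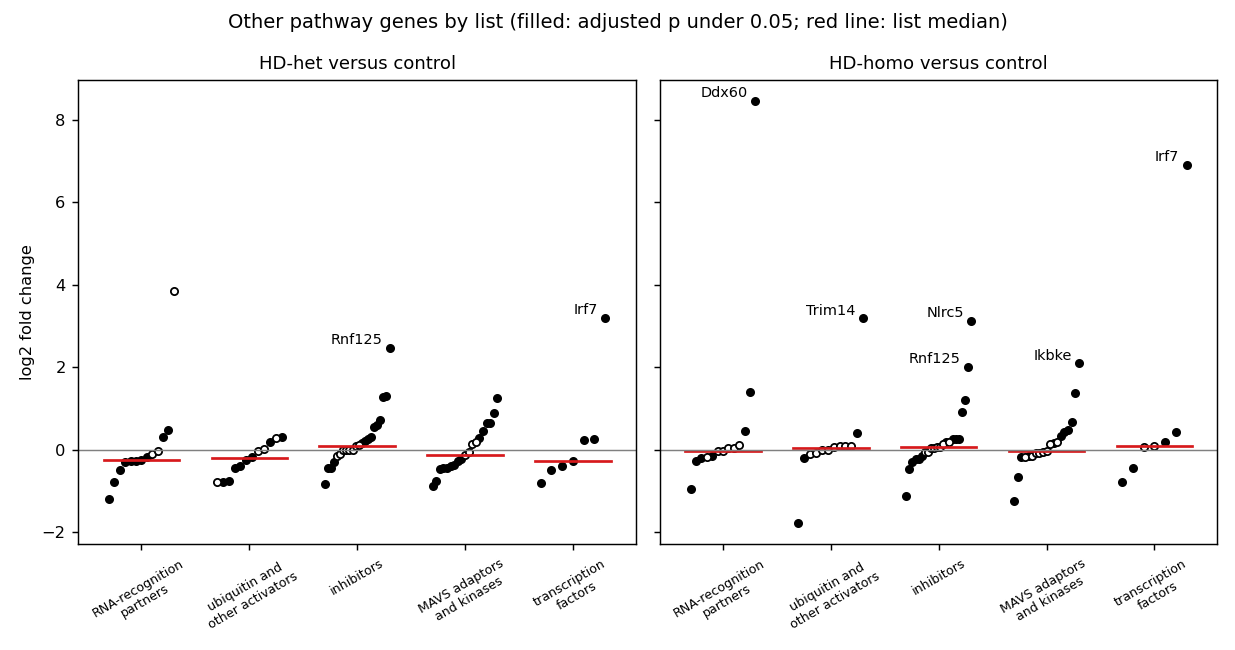
log2 fold change (vertical axis) of the tested genes of 5 pathway lists (horizontal axis) in HD-het (left) and HD-homo cells (right) against control cells. Filled points passed an adjusted p of 0.05, red lines are list medians, and named genes passed the threshold with a change of 2 or more on the log2 scale. The medians lay between -0.27 and 0.09, and the fitted value of Ddx60, which had no read in control cells, depends on the prior count.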

How the data were processed

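RNA-seq of 9 libraries, 3 from each of 3 striatal lines, was used. The authors deposited 1 table of raw counts per gene symbol, made from poly(A)-selected RNA in directional libraries. The submitters' processing notes list cutadapt, Bowtie 1.1.2, RSEM 1.3.0, DESeq2 and the builds GRCm38.p5 and mm10, with no role given, so the deposited whole-number counts may be rounded RSEM estimates. Whether counting used strand is not given in the sources used here, and a gene's reads may then include those of an overlapping antisense gene. Of 36410 rows, 26 carry dates where symbols belong, and 2 symbols are listed a second time. Columns were matched to samples by title, and groups came from the labels.

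The tests used edgeR 4.0.16 under R 4.3.3 (filterByExpr with a minimum count of 10, TMM, quasi-likelihood test, prior count 0.125, all 9 libraries, 1 mean per line), with Benjamini-Hochberg adjustment over 13508 genes. Normalized CPM used effective library sizes over the tested genes. Standard errors were the log2 fold change divided by the square root of F. Counting intervals were exact binomial at 95% on summed reads. Positions and transcript lengths came from GENCODE M21 (GRCm38), and promoters from RefSeq. The edgeR and DESeq2 fits were tried on simulated counts, and the other steps were not.

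The members and lists were chosen with earlier results of these data known. Named genes were the 6 members, the list genes past the threshold with at least 2-fold change in any comparison and the highest and lowest of each list in HD-homo against control cells, and the 5 genes most like each receptor. Alternatives were DESeq2's size factors within edgeR, library totals, the Wald test of DESeq2 1.42.0, no filter, at least 10 counts in every library, only the 2 lines compared, the replicate number as a block, a prior count of 2 and leaving out each library.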

Additional observations from a re-analysis of the deposited data

Results flagged for a closer look

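In 2 members the HD lines moved in opposite directions from control cells. Trim25 was higher in HD-homo and lower in HD-het cells, and the difference between the HD lines was 8.51 on the log2 scale by edgeR's quasi-likelihood test (adjusted p = 3.13e-11), with 8.08 to 9.09 when each library was left out in turn. Dhx58 was higher in HD-homo cells, and the difference between the HD lines was 2.11 on the log2 scale (edgeR adjusted p = 1.78e-06), with 1.96 to 2.26 when each library was left out. The lower level of Dhx58 in HD-het than in control cells did not hold without 5 of the 9 libraries in turn, with adjusted p values up to 0.155.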

How the results depend on the processing

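Of 300 log2 fold changes of members under the alternatives, 282 kept their direction and their side of the threshold, 16 kept their direction but no longer passed it, 2 passed it newly and 0 reversed. Under the prior count of 2 the p values stay as they were, so that its part of the 282 could not change side. The 16 were all of Rnf135 in HD-homo against control cells (adjusted p 0.0504 to 0.123, with 0.00963 to 0.123 over all alternatives) or of Dhx58 in HD-het against control cells (0.0507 to 0.155, with 0.0293 to 0.155 over all). The 2 were of Mavs between the HD lines (0.0258 and 0.0366, with 0.0258 to 0.179 over all). With at least 10 counts in every library, Ifih1 and Trim25 were not tested, so that 3 members passed in HD-het against control cells and 2 between the HD lines, of 4 tested in each. A prior count of 2 lowered the fitted log2 fold change of Ifih1 in HD-homo against control cells to 6.79 and that in HD-het cells to 3.37. It moved that of Trim25 to -5.21 in HD-het against control cells and to 7.84 between the HD lines. With the replicate number as a block, 6, 5 and 4 members passed in HD-homo against control, HD-het against control and HD-homo against HD-het cells, as without it, and 44, 55 and 57 list genes against 41, 54 and 55. Calls over all genes rose from 7910 to 8372, from 8797 to 9160 and from 9666 to 9938. Same-numbered libraries correlated in their deviations by -0.01 to 0.15, so the number was not taken as a pairing. As a hint from the data, 6 of 6, 6 of 6 and 4 of 6 libraries correlated best with their own number. Depth limits Ifih1 in control and Trim25 in HD-het cells, whose folds rest on 4 and 9 reads.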
